A study of Mus musculus with 4 samples.

Results

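The S100 calcium-binding protein genes S100a4, S100a6, S100a8, S100a9, S100a10 and S100a11 were examined in single cells of the mouse colon, and 5 of these 6 genes were found by symbol among the 11820 genes counted. S100a9 was not analysed here, so no ratio of S100a8 to S100a9 is given. Male C57/Bl6N mice aged 6 to 7 weeks received a normal chow diet (2 mice, replicates 9 and 11) or a coconut-based high-fat diet (HFD; 2 mice, replicates 1 and 3) for 1 week, with no gene altered in either group. Live lamina propria cells positive for CD45 and CD11b, negative for lineage markers and CD24, and positive for Ly6C or CD64 were sorted, and each mouse filled 1 well of a droplet instrument. In such droplets every captured RNA molecule carries a unique molecular identifier (UMI), and a UMI count therefore counts molecules. The comparison addresses how the S100 genes differ along the path from monocyte to resident macrophage and between the diets. The sort thus favours cells with Ly6C or CD64 protein, and cells not annotated as monocytes or macrophages had been removed from the deposited tables.

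S100 proteins are small proteins with paired EF-hand motifs that change shape when they bind calcium and then bind other proteins. S100a8 and S100a9 form calprotectin, an abundant complex of neutrophils and of monocytes newly arrived from blood, which is secreted and binds zinc and manganese. The other members act mostly inside the cell: S100a4 binds non-muscle myosin and is linked to cell movement, S100a6 (calcyclin) binds several scaffold proteins, S100a10 does not bind calcium and sits with annexin A2 at the plasma membrane, and S100a11 binds annexin A1. In the gut, monocytes that carry Ly6c2 gain MHC class II and then, as they become resident macrophages, complement C1q.

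All 6 genes lie on chromosome 3 in GRCm38. S100a4 spans chr3:90603771-90606045, S100a6 chr3:90612882-90624181 and S100a8 chr3:90668978-90670035, all on the plus strand, and S100a9 lies on the minus strand at chr3:90692632-90695721. These 4 genes share a stretch of 92.0 kb. S100a11 (chr3:93520488-93526287) and S100a10 (chr3:93555080-93564643), both on the plus strand, form a second group 2.82 Mb further along the chromosome. The annotation also holds a processed copy of S100a11, S100a11-ps, on chromosome 12 (73961142 to 73961447), which has no row of its own among the counted genes, so UMIs of S100a11 that match both could have been assigned to S100a11 or lost. Because the 4 members with many UMIs fell together in the comparisons below, the 200 bases before their RefSeq start are shown (GRCm38.p6, plus strand), with S100a8 for contrast. RefSeq promoters were matched by symbol for 5 of the 6 members, not for S100a10. The stretches are chr3:90603570-90603769 for S100a4, chr3:90612694-90612893 for S100a6, chr3:93520296-93520495 for S100a11 and chr3:90668871-90669070 for S100a8. Capitals mark matches to the motifs searched.
S100a4: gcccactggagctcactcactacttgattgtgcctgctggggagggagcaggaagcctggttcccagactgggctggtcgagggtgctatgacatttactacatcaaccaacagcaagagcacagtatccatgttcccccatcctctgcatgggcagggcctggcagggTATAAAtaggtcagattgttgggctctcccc
S100a6: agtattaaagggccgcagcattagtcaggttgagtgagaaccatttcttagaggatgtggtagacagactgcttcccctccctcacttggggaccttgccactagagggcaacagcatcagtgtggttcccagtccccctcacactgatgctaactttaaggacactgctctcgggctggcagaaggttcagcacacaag
S100a11: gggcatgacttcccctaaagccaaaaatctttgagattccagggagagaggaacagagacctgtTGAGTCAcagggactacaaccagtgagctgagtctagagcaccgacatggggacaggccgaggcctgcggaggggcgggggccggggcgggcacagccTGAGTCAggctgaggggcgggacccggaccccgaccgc
S100a8: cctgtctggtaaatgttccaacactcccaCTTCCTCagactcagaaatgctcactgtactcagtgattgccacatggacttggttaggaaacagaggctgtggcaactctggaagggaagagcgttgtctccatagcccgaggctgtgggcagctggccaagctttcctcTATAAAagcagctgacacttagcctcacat

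Both strands were searched for a TATA box (TATAAA), an AP-1 motif (TGANTCA), a PU.1-type motif (GAGGAAG), a STAT-type motif (TTCNNNGAA) and an interferon-stimulated response element (GAAA, any 2 bases, GAAA). S100a4 held TATAAA 31 to 26 bases before its start and S100a8 held it 30 to 25 bases before, a motif found in 9.96% of the 32851 promoter stretches of this length. S100a8 also held CTTCCTC, the reverse complement of GAGGAAG, 171 to 165 bases before its start, and 8.84% of promoters held that motif on either strand. S100a11 held TGAGTCA at 136 to 130 and again at 38 to 32 bases before its start, against 5.48% of promoters with at least 1 such match. None of the 5 motifs was found in the S100a6 stretch. The STAT-type motif and the interferon-stimulated response element, present in 5.49% and 2.27% of promoters, had no match in any of the 4 stretches. These matches describe letters only. The stretches of S100a4, S100a6 and S100a11 thus had no matched motif in common.

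The 4 mice gave 5420 cells and between 3824228 and 7947893 UMIs each, with a median of 3266 to 3926 UMIs per cell. Cells were placed in classes by 3 axes. A cell was Ly6c2 positive with 2 or more Ly6c2 UMIs. MHC class II (H2-Aa, H2-Ab1 and H2-Eb1 together) and C1q (C1qa, C1qb and C1qc together) were each divided at an automatic threshold, which lay at 7.15 and 4.58 on the log2(UMIs per 10000 + 1) scale. Class A was Ly6c2 positive and low in both others, and class B was Ly6c2 positive and MHC II high with low C1q. Class C was Ly6c2 negative and MHC II high with low C1q, and class D was Ly6c2 negative and C1q high. Class A held 604 cells, B 296, C 459 and D 3536, and 525 cells fitted no class. Class A made up 3.90% ± 1.99 (SD, n = 2) of cells in chow mice and 20.8% ± 4.35 (n = 2) in HFD mice, and class D made up 87.8% ± 5.18 and 38.7% ± 7.57. The exact permutation test of each share gave p = 0.33, two-sided, which is the smallest p that 2 against 2 mice allow. Chow mice had 1 and 12 class B cells, too few for a comparison of diets in class B, where at least 20 cells per mouse were required. Other monocyte genes followed the classes: Plac8 and Chil3, not used to define them, stood at 6229 to 13322 and 5284 to 10665 CPM in class A, against 45.9 to 1486 and 16.8 to 335 in class D, where CPM is the number of UMIs per 1000000 UMIs of the sum. Cell barcodes shared by 2 libraries numbered 23. Plasma cell RNA was unevenly spread, with Igha, the IgA heavy chain, at 19364 and 18708 CPM in chow class A and at 5956 and 5172 in HFD class A. The B and plasma cell list (4 genes with a row) stood at 52746 and 35310 CPM in chow class A and at 10026 and 7823 in HFD class A. Epithelial marker RNA (6 genes) stood at 778 CPM in class A of HFD replicate 3. Class A of chow replicates 9 and 11 and HFD replicate 1 had 6.22, 12.1 and 5.19. Dendritic cell marker RNA (5 genes) stood in class C at 86.9 and 227 CPM in chow replicates 9 and 11. In HFD replicates 1 and 3 it stood there at 385 and 196. In class A it stood at 43.5, 18.1, 38.4 and 33.4 in the same order of mice. The part of dendritic cells in the class C levels was not tested.

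All 4 members with enough UMIs to test were lower in C1q-high class D cells than in Ly6c2-positive class A cells of the same mice. S100a4 fell the furthest, by 3.54 ± 0.20 on the log2 scale (SE, 4 mice, adjusted p = 1.8e-11), S100a6 fell by 2.66 ± 0.22 (7.0e-09), S100a10 fell by 2.08 ± 0.17 (5.8e-09) and S100a11 fell by 1.09 ± 0.19 (0.00017). In folds these differences are 11.6, 6.32, 4.24 and 2.13. The tests are edgeR's quasi-likelihood test on UMI sums per mouse and class, with the mouse as a block and adjustment over all genes tested, and genes with an adjusted p under 0.01 are called. Of the 5557 genes tested, 18.9% were called in this comparison, 9.41% as lower in class D, and the median change of all genes tested was 0.03. All 4 calls were kept in 13 alternatives of tool, filter, depth, cells and mice, with the fall of S100a11 between 0.91 and 1.29 on the log2 scale. They were also kept with class D limited to cells above its median C1q level, where S100a11 fell by 1.69 and S100a4 by 4.86.

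S100a4, the myosin-binding member, stood in class A at 964 and 1159 CPM in chow replicates 9 and 11 and at 1344 and 1158 in HFD replicates 1 and 3. In class C it stood at 534, 781, 757 and 462 in the same order of mice. In class D it stood at 61.2, 56.3, 167 and 98.4. Each mouse thus had a lower level in class C than in class A and a further step down to class D, larger as a fold, and only in class D did the diets not overlap. The share of cells with an S100a4 UMI, after every cell was thinned to 1500 UMIs and shallower cells were left out, was 73.3% and 84.0% in class A of chow mice, 76.8% and 76.5% in class A of HFD mice, 5.70% and 5.72% in class D of chow mice and 14.1% and 12.8% in class D of HFD mice. Without thinning, the class D shares were 11.8%, 9.22%, 24.4% and 22.6%.

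S100a6 stood in class A at 3096 and 1895 CPM in the chow mice and at 3244 and 2886 in the HFD mice. In class C the 4 mice lay close together, at 1861, 1903, 1987 and 1641. In class D the chow mice had 240 and 195 and the HFD mice 735 and 556, so the lowest HFD mouse had more than 2 times the level of the highest chow mouse. S100a10 stood at 1585 and 1593 in class A of chow mice and at 1427 and 1497 in class A of HFD mice, which lay just below. In class C it stood at 807 and 1512 in chow mice and at 759 and 563 in HFD mice. Its class D levels were 267 and 352 in chow mice and 404 and 287 in HFD mice, and the diets overlapped. S100a11 was the member whose levels differed least between classes, with 740, 628, 838 and 576 in class A, 509, 756, 693 and 669 in class C, and 198, 174, 477 and 381 in class D. In class D the HFD mice were again the higher ones.

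**Figure D1:**
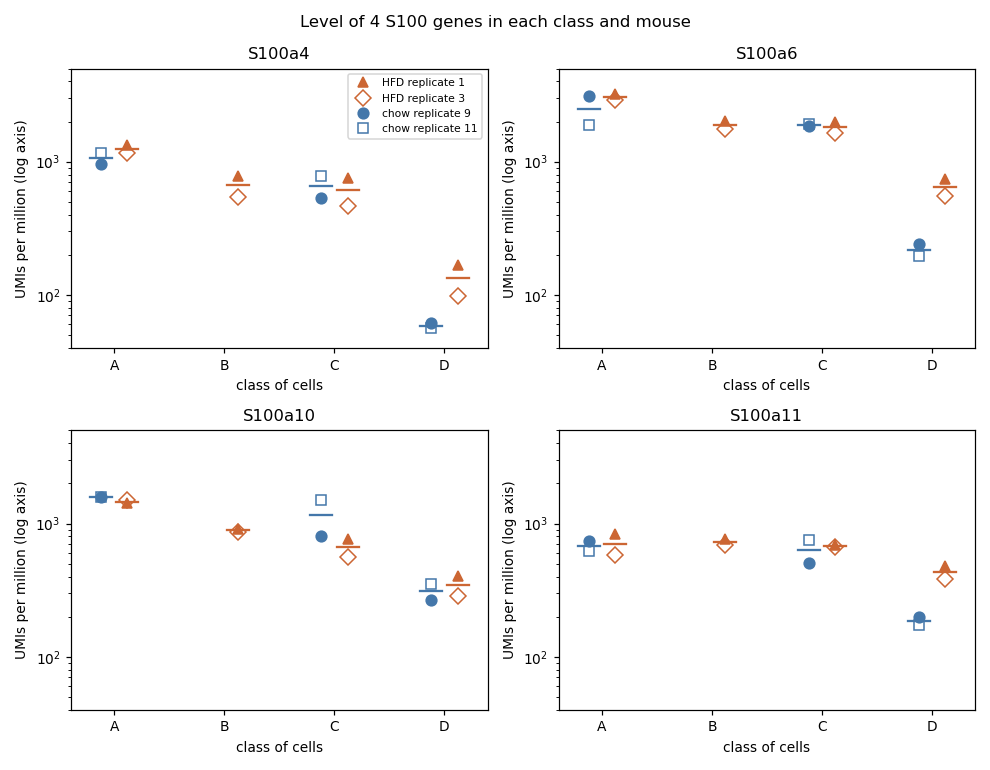
Level of S100a4, S100a6, S100a10 and S100a11 (CPM, log axis) in classes A to D, with 1 point per mouse and a line at the mean of each diet; chow class B is left out because it held 1 and 12 cells. In class D the HFD mice lie above the chow mice for S100a4 (167 and 98.4 against 61.2 and 56.3), S100a6 and S100a11, but overlap with them for S100a10.

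Neighbouring classes were compared in the same fit. From class A to class C, S100a4 fell by 1.00 ± 0.20 (adjusted p = 0.0017) and S100a10 fell by 0.93 ± 0.18 (0.0013), which is 2 of the 4 members, with 5.56% of all 5557 genes called. S100a6 (-0.64 ± 0.22, adjusted p = 0.067) and S100a11 (-0.15 ± 0.21, adjusted p = 0.74) did not pass in that step. Both calls were lost without HFD replicate 3 (S100a4 -0.84, adjusted p = 0.037; S100a10 -0.72, adjusted p = 0.038). From class C to class D all 4 passed: S100a4 fell by 2.54 ± 0.20, S100a6 by 2.02 ± 0.22, S100a10 by 1.16 ± 0.17 and S100a11 by 0.94 ± 0.20 (adjusted p between 2.3e-08 and 0.0034), where 4.75% of genes were called and 1.40% as lower. S100a11 lost this call without chow replicate 11 (-0.70, adjusted p = 0.045) or without chow replicate 9 (-0.90, adjusted p = 0.011).

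Class B could be placed in this order only in the HFD mice, an alternative chosen after seeing the data. There S100a4 fell from class A to class B by 0.92 ± 0.14, S100a10 by 0.70 ± 0.13 and S100a6 by 0.67 ± 0.11 (adjusted p 3.4e-06, 0.00023 and 2.2e-05), with 4.80% of 5651 genes called, while S100a11 changed by 0.07 ± 0.13 (adjusted p = 0.87). From class B to class C edgeR's quasi-likelihood test called 0 of the 4, with 1 at an unadjusted p under 0.05 (S100a10, -0.48 ± 0.14, adjusted p = 0.087), and it called 0.460% of all genes. The levels of S100a4 in HFD class B were 782 and 545 CPM, next to 757 and 462 in class C of the same mice.

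Along C1q itself, without classes, each of the 4 genes was lower at the top step than at the bottom step in all 4 mice. Cells were grouped by their C1q level in 6 steps, each with at least 20 cells in every mouse. In cells with a C1q level under 2, S100a4 stood at 1040, 708, 1149 and 745 CPM in chow replicates 9 and 11 and HFD replicates 1 and 3. In cells at 8 or more it stood at 11.1, 23.5, 76.6 and 35.3. The HFD mice were therefore the higher ones at the top step, while the diets overlapped at the bottom. S100a6 showed the same order at steps 7 to 8 (140 and 156 in chow, 517 and 453 in HFD) and 8 or more (86.6 and 118 in chow, 325 and 163 in HFD).

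S100a11 differed in where the diets parted. From a C1q level of 4 up to 8 the 2 HFD mice were above the 2 chow mice, with 415 and 295 in chow against 703 and 540 in HFD at the step from 6 to 7, and 171 and 165 against 336 and 334 at the step from 7 to 8. At 8 or more the mice overlapped again (158 and 142 in chow, 163 and 110 in HFD). S100a10 went the other way in the middle steps: at a C1q level of 4 to 6 the chow mice had 1413 and 1414 and the HFD mice 639 and 779, and at 6 to 7 the chow mice had 711 and 816 and the HFD mice 547 and 421. These are levels in bins that depend on the C1q axis and were not tested.

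**Figure D2:**
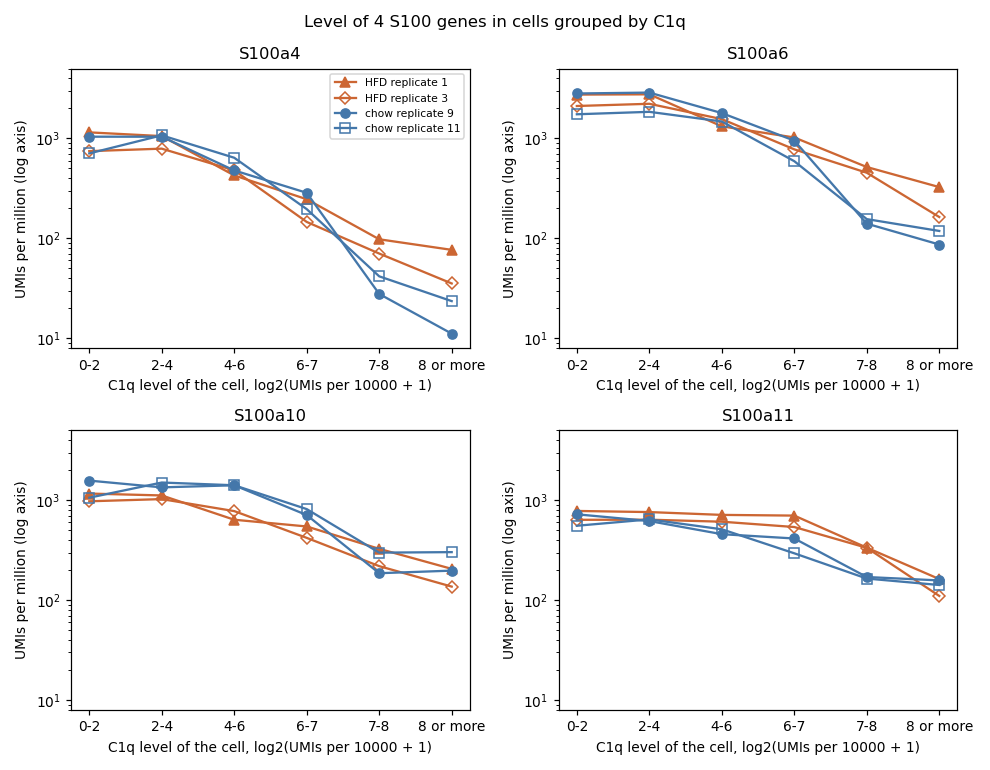
Level of the 4 genes (CPM, log axis) in cells grouped by C1q level, log2(UMIs per 10000 + 1), with 1 line per mouse. Each line is lower at 8 or more than under 2, though S100a10 in chow mice is flat from 7 upward; from 7 to 8 the HFD mice lie above the chow mice for S100a6 (517 and 453 against 140 and 156), and from 4 to 7 they lie below them for S100a10.

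MHC II high cells had lower levels than MHC II low cells in each mouse. In cells with an MHC II level under 5, S100a4 stood at 1077 and 961 in chow mice and at 1349 and 1253 in HFD mice, and in cells at 9 or more it stood at 46.4 and 36.9 in chow and at 216 and 136 in HFD. S100a6 at 9 or more stood at 186 and 145 in chow and at 771 and 710 in HFD. MHC II high cells include both class C and class D, whose shares differ between the diets, so these values mix level and make-up. Cells with Ly6c2 UMIs had the higher levels: in cells without a Ly6c2 UMI S100a4 stood at 109, 68.4, 326 and 224, and in cells with 8 or more at 708 in chow replicate 11 and at 1165 and 877 in the HFD mice, where chow replicate 9 had under 20 cells.

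Over all cells together, the 4 tested members were higher in HFD mice than in chow mice. S100a4 stood at 160 and 106 CPM in chow replicates 9 and 11 and at 652 and 459 in HFD replicates 1 and 3. S100a6 stood at 517 and 288 against 1770 and 1434, S100a10 at 391 and 417 against 790 and 684, and S100a11 at 247 and 200 against 635 and 532. No HFD mouse overlapped with a chow mouse for any of the 4. The rises were 1.85 ± 0.25 for S100a4, 1.78 ± 0.27 for S100a6, 1.17 ± 0.15 for S100a11 and 0.65 ± 0.12 for S100a10 on the log2 scale (adjusted p 0.0026, 0.0042, 0.0025 and 0.0094), in a comparison in which 16.1% of 4948 genes were called and 7.66% as higher. Over all cells a change in the share of a cell type cannot be told apart from a change within it. Without HFD replicate 1 none of the 4 calls remained (adjusted p 0.014 to 0.072), without HFD replicate 3 S100a4 was called and the other 3 were not (adjusted p 0.012 to 0.031), and S100a10 was lost without any 1 mouse.

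How far the shares of classes alone account for these levels was computed by giving each HFD mouse the chow level of every class, cells outside the classes included, weighted by the share of that mouse's UMIs in the class. For S100a4 this gave 3.89 and 3.96 times the chow mean in HFD replicates 1 and 3, where 4.89 and 3.44 times were observed, so the observed values lie on both sides. For S100a10 it gave 2.19 and 2.14 times, above the observed 1.96 and 1.69. For S100a6 it gave 3.12 and 3.07 times against an observed 4.40 and 3.56, and for S100a11 1.86 and 1.81 times against 2.84 and 2.38, so both HFD mice exceeded the value from shares alone for these 2 genes. The chow level of class B in this calculation rests on 13 cells. In the reverse direction, with HFD levels at the chow mice's shares, S100a11 came to 0.772 and 0.752 of the HFD mean, where 0.424 and 0.342 were observed in chow replicates 9 and 11, and S100a6 to 0.512 and 0.461, where 0.323 and 0.180 were observed. S100a4 came to 0.381 and 0.315 against an observed 0.289 and 0.191, below in both mice and unlike the other direction. S100a10 came to 0.565 and 0.519 against 0.531 and 0.565, on both sides.

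**Figure D3:**
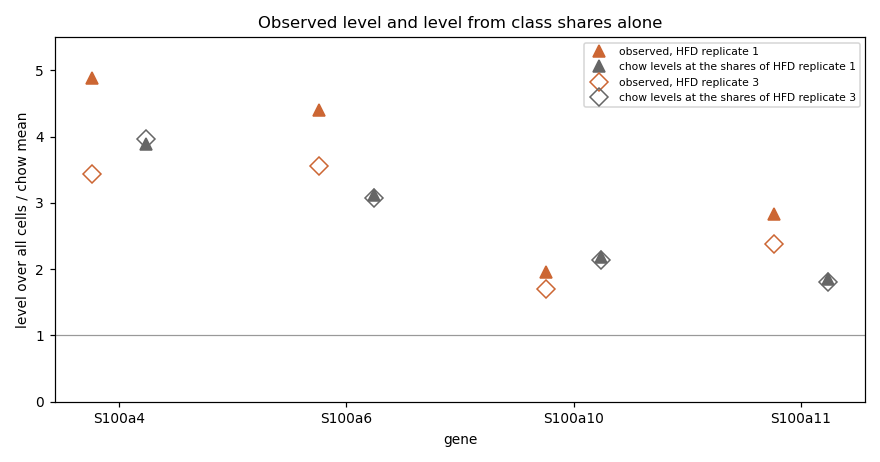
Level over all cells in each HFD mouse divided by the chow mean, as observed (orange) and as given by chow levels of each class at that mouse's class shares (grey), with filled symbols for replicate 1 and open symbols for replicate 3; the line marks a ratio of 1. For S100a6 and S100a11 both observed values (4.40 and 3.56; 2.84 and 2.38) lie above the grey values, for S100a10 both lie below.

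Within class A the diets were compared directly, and edgeR's quasi-likelihood test called 0 of the 4 members, with 0 at an unadjusted p under 0.05 and 0 called by DESeq2 or by edgeR's likelihood-ratio test. S100a4 differed by 0.10 ± 0.19, S100a6 by 0.17 ± 0.21, S100a10 by -0.25 ± 0.17 and S100a11 by -0.08 ± 0.22 (adjusted p 0.62 to 0.94), where 0.497% of 4625 genes were called. Within class C it called 0 of the 4 as well, with 1 at an unadjusted p under 0.05 and 0 called by DESeq2 or the likelihood-ratio test, where 0.580% of 4653 genes were called. The 1 was S100a10, for which the 2 HFD mice were below the 2 chow mice (-0.87 ± 0.28, adjusted p = 0.19). Without chow replicate 9 this difference was -1.27 with an adjusted p of 0.00079, and without chow replicate 11 it was -0.35. Class C of the chow mice held 27 and 32 cells, and the other 3 members differed there by -0.17 ± 0.29 (S100a4), -0.11 ± 0.17 (S100a6) and 0.05 ± 0.23 (S100a11).

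Within class D 2 of the 4 members were called, both higher in HFD mice, where 10.1% of 5035 genes were called and 5.12% as higher. S100a6 rose by 1.43 ± 0.18 (2.70-fold, adjusted p = 0.00082) and S100a11 by 1.07 ± 0.16 (2.10-fold, adjusted p = 0.0021). S100a4 differed by 1.04 ± 0.24 with an adjusted p of 0.016 and was not called, although DESeq2 (adjusted p = 0.0025) and the likelihood-ratio test (0.00085) called it. With 1 mouse left out, the S100a4 difference ranged from 0.60 to 1.40. S100a10 differed by 0.02 ± 0.20 (adjusted p = 0.94). S100a6 was called without each mouse in turn (1.21 to 1.64), and S100a11 was not called without HFD replicate 1 (0.89, adjusted p = 0.019).

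Class D itself differed between the diets in genes other than the S100 members. Of the class D cells of HFD mice, 48.4% and 21.2% fell in clusters 6 and 4 of a clustering made without the S100 genes, whereas 43.3%, 24.2% and 30.2% of those of chow mice fell in clusters 1, 2 and 3. The summed monocyte marker list (7 genes) stood at 2363 and 2280 CPM in class D of HFD replicates 1 and 3 and at 306 and 466 in chow replicates 9 and 11, and the resident macrophage list (8 genes) at 39812 and 34400 against 83063 and 81147. The dendritic cell list (5 genes) stood at 167 and 151 CPM in HFD class D against 25.6 and 26.1 in chow class D, the B and plasma cell list (4 genes with a row) at 171 and 127 against 1199 and 1148, and the neutrophil list (5 genes with a row) at 496 and 521 against 440 and 325. Il1r2 alone gave 484 and 512 of the neutrophil list in HFD class D against 420 and 308 in chow. Mmp9 went the other way, at 1.18 and 0 against 18.5 and 14.1. The part of these list differences in the S100 levels was not tested. In cluster 1, which held the most class D cells of the chow mice and 58 and 76 cells of HFD replicates 1 and 3, S100a6 differed by 1.38 (adjusted p = 0.044) and S100a11 by -0.26 (adjusted p = 0.76), neither called, and S100a4 did not pass the filter on low counts.

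The same comparison was limited to class D cells above the class's median C1q level, an alternative chosen after seeing the data. There S100a6 stood at 114 and 120 CPM in chow mice and at 407 and 253 in HFD mice, and the difference was 1.43 with an adjusted p of 0.012, so its size was kept and the call was not. S100a11 stood at 168 and 160 in chow mice and at 227 and 192 in HFD mice, a difference of 0.29 (adjusted p = 0.42). Below the median the HFD mice had 655 and 502 against 252 and 210 in chow mice. S100a6 below the median stood at 968 and 748 in HFD mice and at 465 and 386 in chow mice. The 2 HFD mice were above the 2 chow mice on either side of the median for both genes, and the 2 sides were not tested against each other. Of the class D cells 59.9% and 66.3% lay above the median in chow mice and 39.7% and 34.0% in HFD mice.

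**Figure D4:**
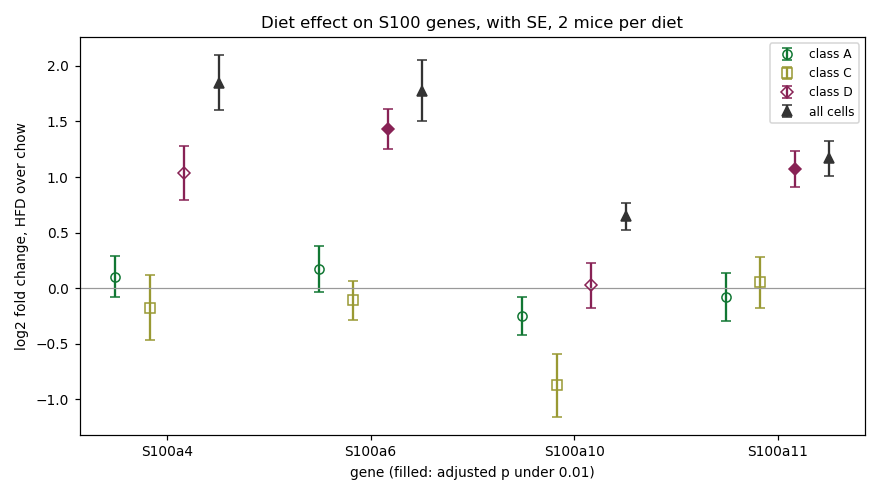
Difference between HFD and chow mice (log2 fold change ± SE, 2 mice per diet) for each gene within classes A, C and D and over all cells; filled symbols have an adjusted p under 0.01. Within classes only S100a6 (1.43) and S100a11 (1.07) in class D are filled, and S100a10 stands at 0.02 there.

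Whether the diet effect differed between classes A and D was tested as an interaction with the mouse as a block. The effect was smaller in class A for S100a6, by -1.17 ± 0.20 (adjusted p = 0.0011), and for S100a11, by -1.11 ± 0.21 (adjusted p = 0.0027), 2 of 4 members where 1.18% of 5408 genes were called. S100a4 (-0.85 ± 0.23, adjusted p = 0.060) and S100a10 (-0.21 ± 0.22, adjusted p = 0.74) were not called. With 1 mouse left out, the S100a4 difference ranged from -1.15 to -0.55. S100a6 lost its call without chow replicate 9 (-0.91, adjusted p = 0.066) or HFD replicate 1 (-1.03, adjusted p = 0.020), and S100a11 without chow replicate 9 (-1.04, adjusted p = 0.065), chow replicate 11 (-1.07, adjusted p = 0.038) or HFD replicate 3 (-1.04, adjusted p = 0.012). S100a11 was not called by DESeq2 (adjusted p = 0.020) or with sums thinned to 1 depth (-1.19, adjusted p = 0.027), and with class D limited to cells above its median C1q level neither gene was called, at -1.07 (adjusted p = 0.10) for S100a6 and -0.27 (adjusted p = 0.79) for S100a11.

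RNA released from broken cells can enter any droplet, and HFD mice held more class A cells from which such RNA could come. The class D level was therefore set against the class A level of the same mouse, as a percentage. In HFD replicates 1 and 3 it was 3.14% and 3.40% for Chil3 and 2.51% and 2.51% for Ly6c2 (whose low level in class D the gate fixes), but 22.7% and 19.2% for S100a6, 56.9% and 66.1% for S100a11, 28.3% and 19.2% for S100a10 and 12.4% and 8.49% for S100a4. Plac8 stood at 11.2% and 12%. In chow replicates 9 and 11 the percentages were 7.77% and 10.3% for S100a6, 26.8% and 27.7% for S100a11 and 0.318% and 0.678% for Chil3. Plac8 stood at 0.737% and 1.24% in these chow mice. The percentages of the S100 genes within a mouse lay above that of Chil3. They also lay above that of Plac8, except for S100a4 in HFD replicate 3 (8.49% against 12%). Class C cells could release RNA too. In HFD replicates 1 and 3 the class C level was 82.7% and 116% of the class A level for S100a11. For Chil3 it was 7.01% and 12.3%. The percentages for class D take class A as the only source, and the part of released RNA in the class D levels was not tested.

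S100a8, the calprotectin subunit, was rare in these cells. It had 111 UMIs in 44 cells, and 100 of the UMIs came from HFD replicate 1. In that mouse 33 of 966 cells had an S100a8 UMI (3.42%, exact 95% Clopper-Pearson interval 2.36% to 4.76%), in HFD replicate 3 10 of 1548 (0.646%, 0.310% to 1.18%), in chow replicate 9 1 of 904 (0.111%, 0.00280% to 0.615%) and in chow replicate 11 0 of 2002, for which the upper end of that interval is 0.184% and the limit of 3 counts is 0.150%. The intervals and limits cover counting error only. Thinned to 1500 UMIs per cell, the shares were 1.66% and 0.223% in the HFD mice, and 0 cells with an S100a8 UMI remained in either chow mouse.

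Within HFD replicate 1, 22 of 231 class A cells (9.52%, 6.07% to 14.1%) held 82 of the 100 S100a8 UMIs, 85.2 CPM, and cells of no class held 9, class C 4, class D 3 and class B 2. Class D, whose resident macrophages should lack the gene, had 3 of 426 cells with a UMI (0.704%, 0.145% to 2.04%), at median depths of 4366 UMIs per cell in class A and 3732.5 in class D. In HFD replicate 3 the class A share was 5 of 275 (1.82%, 0.593% to 4.19%) and the class D share 1 of 517 (0.193%, 0.00490% to 1.07%), and these intervals overlap. The 98 class A cells of the chow mice had 0 S100a8 UMIs, which allows a share of cells with a UMI of up to 3.06% and a level of up to 9.19 CPM over both mice, and does not limit the share of cells that express the gene. The level in class A of HFD replicate 1 was 9.27 times that limit, while the 5.76 CPM of HFD replicate 3 lay under it. The limit in CPM takes UMIs as independent and pools the cells of both chow mice. Most of the 82 UMIs, however, came from 5 of the 231 cells, with 20, 15, 13, 6 and 5 UMIs. The 9.27 is therefore no lower bound on the fold. The diet difference in S100a8 therefore rested on 1 mouse. S100a8 had a UMI in under 5% of the cells of each class over the 4 mice, did not pass the filter on low counts and is described here by its counts.

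**Figure D5:**
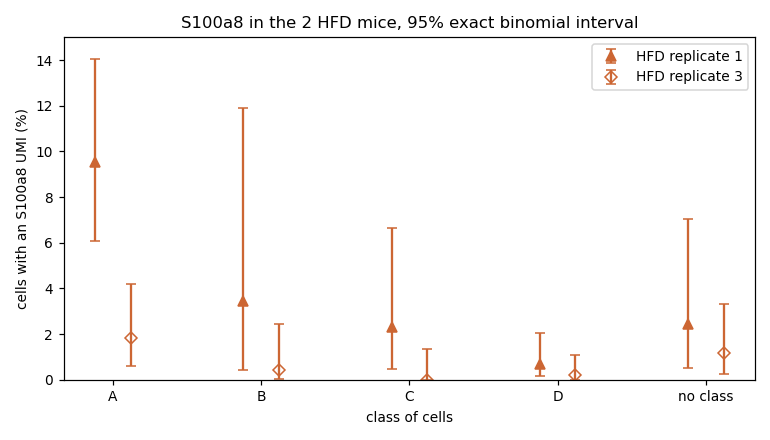
Percentage of cells with an S100a8 UMI in each class, and in cells of no class, of the 2 HFD mice, with 95% exact binomial intervals; chow mice, with 1 cell in all, are not drawn. Class A of HFD replicate 1 (9.52%) lies above its class D (0.704%), and the intervals of HFD replicate 3 overlap.

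The UMIs were also uneven among cells. Of the 44 cells with S100a8, 32 had a single UMI and 6, all of HFD replicate 1, had 5 or more, with 20 UMIs in the highest. Of these 6 cells, 5 were in class A, and the highest had 36 Ly6c2, 118 Plac8 and 202 Chil3 UMIs along with 5 of Lcn2 and 1 of Cd177, so it carried monocyte genes and 2 genes of the neutrophil list. Another of the 6 had 4 Cd177 UMIs and 1 of Il1r2, and a further one had 2 of Lcn2. The neutrophil marker list had 5 genes with a row (Mmp9, Lcn2, Il1r2, Cd177 and Hdc). In class A of HFD replicate 1, Lcn2, a granule protein of neutrophils, had a UMI in 5 of the 22 S100a8-positive cells and in 10 of the 209 others, and Cd177, a neutrophil surface protein, in 11 of 22 and 52 of 209. Il1r2, the decoy receptor of interleukin-1, had a UMI in 8 of 22 and 50 of 209, Hdc, which makes histamine, in 2 of 22 and 28 of 209, the reverse order, and Mmp9 had 0 UMIs in both groups. The S100a8-positive cells were deeper (median 4767 against 4221 UMIs), and the part of depth in these shares was not tested. Plac8 had a UMI in all 22 and in 207 of the 209, and Ly6c2 in all cells of both groups, which the class definition fixes. Of the 44 cells, 7 counted as neutrophil-marker cells (UMIs of 2 or more list genes), beside 216 of all 5420 cells (3.99%), and 1 as a doublet. Genes of the list were also common in other cells. Cd177 had a UMI in 20.7% to 35.4% of the class A cells of a mouse, and Il1r2 in 42.0% to 56.5% of the class D cells. The other 4 members had higher levels in the 22 cells than in the 209, with S100a4 at 1799 against 1287 CPM, S100a6 at 3727 against 3182, S100a10 at 1752 against 1386 and S100a11 at 1168 against 797, which are sums over cells of 1 mouse and were not tested.

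S100a8 was thus seen in few cells, mostly of 1 mouse. The other 4 members varied together across the 12 sums of classes A, C and D in 4 mice. As a description, Pearson's r of log2(CPM + 1) between members ranged from 0.79 (S100a10 and S100a11) to 0.97 (S100a4 and S100a6). These sums share mice and classes, so the fall from class A to D enters every r. Among all 5557 genes tested, the 3 most like S100a4 were Cd47 (r = 0.98), Anxa2 (0.98) and S100a6 (0.97), and the 3 most like S100a6 were Cd47 (0.99), Tmsb10 (0.98) and Zyx (0.97). For S100a10 they were Anxa2 (0.98), Emp3 (0.98) and Fxyd5 (0.97), and for S100a11 Slc16a3 (0.97), Agpat4 (0.95) and S100a6 (0.95). Anxa2 encodes annexin A2, the known binding partner of S100a10, Cd47 a surface protein read by SIRPα on phagocytes, and Tmsb10 and Zyx proteins of the actin cytoskeleton.

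Of the other S100 genes, S100a1, S100a13, S100a14 and S100a16 had rows. S100a14 and S100a16 had at most 11 and 19 UMIs in any mouse and were not tested. S100a1 stood at 106, 66.4, 106 and 101 CPM in class A and at 119, 104, 123 and 110 in class D of chow replicates 9 and 11 and HFD replicates 1 and 3 (0.36 ± 0.18, adjusted p = 0.17). S100a13 stood at 174, 157, 230 and 229 in class A and at 101, 101, 155 and 172 in class D (-0.43 ± 0.15, adjusted p = 0.037), and neither was called. Over all cells S100a13 rose in HFD mice by 0.60 ± 0.12 (adjusted p = 0.0098), from 109 and 103 to 190 and 184. Within class D its difference was 0.56 ± 0.14 (adjusted p = 0.023), not called. S100pbp, a binding protein of S100P and not an S100 gene, had at most 32 UMIs in any mouse.

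Of the 25 genes on the list of S100 partners, 22 had a row and 20 were tested between classes A and D, where 7 were lower and 1 higher in class D, beside 9.41% and 9.48% of all genes, and the list's median was -0.28 beside 0.03 for all genes. Of the 4 annexins tested, 3 fell. Anxa2 fell by 2.66 ± 0.18 (adjusted p = 3.0e-10), from 1523, 1388, 1313 and 1294 CPM in class A to 144, 180, 264 and 205 in class D, and Anxa1, the partner of S100a11, fell by 2.32 ± 0.22 (6.0e-08). Anxa6 fell by 0.73 ± 0.20 (adjusted p = 0.0077). Ahnak, a scaffold protein bound by S100a10 with annexin A2, fell by 2.10 ± 0.19 (adjusted p = 3.2e-08) and was the only 1 of the 8 cytoskeletal and scaffold partners called.

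Myh9, the non-muscle myosin heavy chain bound by S100a4, was between 73.8 and 118 in class A and between 81.8 and 98.1 in class D (0.11 ± 0.18, adjusted p = 0.69). Rac2, a small GTPase of the NADPH oxidase that calprotectin assists in neutrophils, fell by 0.84 ± 0.13 (adjusted p = 4.2e-05). Among receptors bound by secreted S100 proteins, Cd36 was higher in class D (4.03 ± 0.43) and Alcam lower (-1.15 ± 0.25). Cd36 fell on HFD within class D by 1.27 ± 0.20 (adjusted p = 0.0023), from 118 and 89.1 to 43.7 and 49.9. Between the diets, 1 of 20 partners was called in class D (Cd36, lower), beside 10.1% of all genes, 1 of 19 in class C (Ahnak, -1.84 ± 0.27, adjusted p = 0.0083), beside 0.580%, and edgeR's quasi-likelihood test called 0 of 18 in class A, beside 0.497%. Anxa2 rose over all cells by 1.04 ± 0.15 (adjusted p = 0.0031), and within class D its difference was 0.40 ± 0.18 (adjusted p = 0.15), not called.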

How the data were processed

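Single cells of 4 mice were measured with droplet 3′ RNA sequencing, 1 library per mouse. The authors mapped the reads with kallisto 0.46.0 and bustools 0.39.2 (versions from the submitters' processing notes) to the mouse genome mm10 with Ensembl genes. They deposited raw UMI counts per gene and cell after removing low-quality cells and cells not annotated as monocytes or macrophages. Every column of per-cell counts was assigned to a mouse, and 0 were left out. S100a9 was not analysed here.

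Counts were summed per mouse and class, and genes over 1 CPM in 2 of 4 sums (4 sums in fits across classes) and detected in 5% or more of a class's cells were tested with edgeR 4.0.16 (TMM scaling, quasi-likelihood test, Benjamini-Hochberg adjustment over all genes tested, called at a false discovery rate of 1%). Fits across classes took the mouse as a block, and the standard error is the log2 fold change divided by the square root of F. Genes that define the classes were left out of counts of calls. Shares of cells were compared with exact permutation tests. Cells were thinned to 1500 UMIs for shares of cells with a UMI. Doublets (38 cells, 0.701%, Scrublet in scanpy 1.11.5) and 216 cells with UMIs of 2 or more neutrophil genes were kept and left out in alternatives. The same was done for 407 cells within 0.5 of a class limit and for 27 cells counted as other cell types. Clusters came from scran 1.30.0 with Ward linkage. The edgeR steps were tested on simulated data. Depth per mouse, between 3824228 and 7947893 UMIs, leaves the fewest UMIs, among the classes compared between diets, in class C of the chow mice (80594 and 79352).

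Named genes are the members, every other S100 gene with a row, a list of 25 partners (1 of which is not reported here by name), and the 3 genes most correlated with each member over 12 sums. Members and lists were chosen with earlier results of these data known. Alternatives were DESeq2 1.42.0, the likelihood-ratio test, RLE scaling, no filter, thinned sums, other class limits, clusters, and each mouse left out.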

Additional observations from a re-analysis of the deposited data

Results flagged for a closer look

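The difference of the diet effect between class A and class D passed the test for S100a6 (-1.17 on the log2 scale) and for S100a11 (-1.11), which are given here because the effects of diet differed between the 2 classes. In class D both HFD mice were higher than both chow mice for both genes, and in class A the mice of the diets overlapped for both. Above the median C1q level of class D neither was called, with -1.07 (adjusted p = 0.10) for S100a6 and -0.27 (adjusted p = 0.79) for S100a11. S100a6 was also not called without chow replicate 9 (-0.91) or HFD replicate 1 (-1.03), and S100a11 without chow replicate 9 (-1.04), chow replicate 11 (-1.07) or HFD replicate 3 (-1.04), with DESeq2 (-1.11) and with thinned sums (-1.19). Class D of the HFD mice also held more monocyte marker RNA (2363 and 2280 CPM against 306 and 466), and its part in the difference was not tested.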

How the results depend on the processing

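The diets were not compared in pairs, because the sample labels give no pairing of chow with HFD mice. Of the values for single genes that passed the test, 210 kept direction and side of the threshold over the alternatives, 27 lost the call and 1 reversed; of those that did not pass, 183 were the same, 7 passed and 23 reversed. Of the counts, shares and levels, 153 were the same and 20 moved. All 4 falls from class A to class D passed in every alternative run. Class C could not be fitted without the cells near the class limits, and thinned sums were not run over all cells.

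The number of members called was 1 without the filter in class A (S100a8, log2 fold change 7.65, adjusted p = 0.00035, a fitted value and no bound, against 0 UMIs in chow mice and with 82 UMIs in HFD replicate 1 and 5 in HFD replicate 3; over all cells and in class D the same fit did not call it, with adjusted p = 0.015 and 0.13), 0 in class D for cells above the median C1q level and in the clusters, 4 from class A to C without the filter, and, for the difference between classes A and D, 0 above the median C1q level, 1 with DESeq2 and 1 with thinned sums (S100a6 in both). With 1 mouse left out, it ranged from 0 to 1 in class C, 1 to 3 in class D, 0 to 3 over all cells, 0 to 2 from class A to C, and 0 to 2 for the difference between classes. A mouse left alone in its diet was assumed to vary like the others.

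With 1 mouse left out, the level from class shares alone, as a fold of the chow mean, ranged from 1.89 to 2.23 for S100a10 and from 2.90 to 5.07 for S100a4. Without thinning the S100a8 shares were 0.111% in chow replicate 9, 3.42% in HFD replicate 1 and 0.646% in HFD replicate 3.

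In class D S100a11 reversed to -0.26 in the clusters, and S100a10 was -0.15 above the median C1q level, -0.16 with Ly6c2 positive at 1 UMI, -0.18 in the clusters, -0.0012 without neutrophil-marker cells, and between -0.25 and 0.27 with 1 mouse left out. In class A S100a11 was 0.12 without the filter, and with 1 mouse left out S100a11 ranged from -0.37 to 0.15, S100a4 from -0.012 to 0.25 and S100a6 from -0.14 to 0.57. In class C S100a11 was -0.0048 without neutrophil-marker cells, S100a4 0.11 with Ly6c2 positive at 1 UMI and 0.12 without the filter, and S100a6 0.19 without the filter. With 1 mouse left out, class C gave -0.22 to 0.37 for S100a11, -0.57 to 0.15 for S100a4 and -0.26 to 0.026 for S100a6. The difference between classes for S100a10 was 0.019 above the median C1q level, 0.00089 with thinned sums and -0.52 to 0.086 with 1 mouse left out. The causes were not tested.

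Over all genes the likelihood-ratio test called 85 genes in class A, 150 in class C, 831 in class D and 1300 over all cells, against 23, 27, 507 and 798 with the quasi-likelihood test. Without the filter 109 (of 11264 tested), 180, 916 and 1211 were called, and the median of all genes moved to 0.31 in class A, 0.56 in class C and 0.37 for the difference between classes. Thinned sums gave 0 calls in class C. The clusters gave 13 in class D and cells above the median C1q level 50. Without HFD replicate 3 the calls were 108 in class D and 151 over all cells, and without HFD replicate 1 243 and 264.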
